A study of Mus musculus with 12 samples.

Results

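The 36 genes described here are lysosomal hydrolases, lipid carriers and membrane proteins, out of 19705 genes with a named probe and a value on every array. Their choice was by name, from the function of their products and not by their values, though with earlier results of these data known. Cathepsins and the proton pump were kept apart from the set. All 36 genes had a value on every array, 29 of them from 1 probe and 7 from the mean of 2 or 3 probes, and no filter on low values was applied. The study hybridised RNA of mouse aortic arches to 12 microarrays of 2 colours, with 4 groups of 3 arrays. These groups comprised Apoe-/- mice on the C57BL/6 strain after 8, 16 or 24 weeks of a high-fat diet (21% fat, 0.15% cholesterol), and wild type C57BL/6 mice after 16 weeks of the same diet. The diet started at an age of 8 weeks in every group, so longer diet also means older mice, and the 8-week and 24-week groups differ from wild type in age and diet time as well as in genotype. Each array held RNA pooled from the arches of 3 mice, except pool 2 at 8 weeks, which held RNA of 2 mice. Pools 1, 2 and 3 are the 8-week pools, 4, 5 and 6 the 16-week pools, 10, 11 and 12 the 24-week pools and 16, 17 and 18 the wild type pools. The titles mark the 9 Apoe-/- pools as given no drug and the wild type pools as control. Pools 3 and 6 carry an asterisk in the labels that the sources used here do not explain.

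Lysosomes are acidic compartments in which hydrolases break down sugar chains, lipids and proteins that arrive from outside the cell or from the cell's own worn parts. In an atherosclerotic artery, macrophages take up lipoproteins, acid lipase frees the cholesterol from its esters in the lysosome, and the carrier proteins encoded by Npc1 and Npc2 hand that cholesterol on. Apoe-/- mice lack apolipoprotein E, clear remnant lipoproteins poorly and develop such lesions, with the aortic arch among the favoured sites. The transcription factor Tfeb binds an E-box, CACGTG, in the promoters of many lysosomal genes and raises their transcription.

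The promoters of 8 genes are shown because they set the E-box beside the changes described further on. Lamp1, Mcoln1, Glb1 and Naglu hold the E-box, while Gusb, Npc2, Lamp2 and Hexa, which had 4 of the 5 largest differences from wild type at 24 weeks, do not hold it. The 8 genes were picked by hand, and those without the E-box have large changes. They therefore cannot show whether the E-box goes with the size of change. Each stretch covers the bases from -150 to -1 before the gene start in RefSeq, build GRCm38.p6, written 5′ to 3′ on the strand of the gene, with each E-box in capitals. The E-box reads the same on both strands. The positions are Lamp1 chr8:13159011-13159160, Mcoln1 chr8:3500369-3500518, Glb1 chr9:114400928-114401077, Naglu chr11:101069944-101070093 and Hexa chr9:59539390-59539539 on the plus strand, and Gusb chr5:130003050-130003199, Npc2 chr12:84773113-84773262 and Lamp2 chrX:38456461-38456610 on the minus strand.
Lamp1: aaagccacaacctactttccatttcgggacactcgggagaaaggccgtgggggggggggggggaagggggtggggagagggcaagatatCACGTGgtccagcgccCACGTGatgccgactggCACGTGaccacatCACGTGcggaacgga
Mcoln1: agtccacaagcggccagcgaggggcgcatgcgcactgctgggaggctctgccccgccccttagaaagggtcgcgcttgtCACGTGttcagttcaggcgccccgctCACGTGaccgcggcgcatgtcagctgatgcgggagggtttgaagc
Glb1: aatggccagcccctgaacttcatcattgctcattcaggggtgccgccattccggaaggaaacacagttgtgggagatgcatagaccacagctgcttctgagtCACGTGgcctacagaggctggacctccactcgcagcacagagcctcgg
Naglu: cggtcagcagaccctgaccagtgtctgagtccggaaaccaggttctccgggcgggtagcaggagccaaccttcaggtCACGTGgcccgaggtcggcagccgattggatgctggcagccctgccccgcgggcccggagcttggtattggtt
Gusb: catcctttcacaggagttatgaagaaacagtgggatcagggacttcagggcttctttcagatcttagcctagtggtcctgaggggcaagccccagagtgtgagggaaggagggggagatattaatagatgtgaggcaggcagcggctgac
Npc2: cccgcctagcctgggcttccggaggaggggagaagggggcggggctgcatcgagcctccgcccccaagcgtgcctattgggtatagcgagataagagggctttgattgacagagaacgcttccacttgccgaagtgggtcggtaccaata
Lamp2: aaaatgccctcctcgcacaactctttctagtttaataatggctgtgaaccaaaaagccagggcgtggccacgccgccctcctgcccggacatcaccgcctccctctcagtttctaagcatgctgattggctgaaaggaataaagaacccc
Hexa: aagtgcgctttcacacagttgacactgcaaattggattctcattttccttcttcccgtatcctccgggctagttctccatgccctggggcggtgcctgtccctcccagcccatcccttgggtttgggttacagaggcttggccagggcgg

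The E-box was searched in windows from 250 bases before to 50 bases after the gene start, which were at hand for 32 of the 36 genes. It was found in 9 of these 32 genes (28.1%), against 8.09% of 27025 mouse genes with such a window. Lamp1 held 4 E-boxes, starting at -61, -45, -28 and -15, and Mcoln1 held 2, at -71 and -45. Cln3 also held 2, at -149 and -121 of 1 of its windows, and Gla held 2, at -227 and -194. A single E-box stood at -48 in Glb1, -73 in Naglu, -140 in Gaa, -29 in Sgsh and -16 in Arsa. With a T before it on either strand, TCACGTG, a longer motif that contains the E-box, was found in 9 of the 32 genes too, against 4.29% of all genes. Npc1, Aga, Asah1 and Galns had no window in the table used.

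Every value is the log2 ratio of a pool over a common reference, an equal mix of Apoe-/- arch RNA of the 3 diet times, labelled as a vehicle pool of 21 mice, where the Apoe-/- pools are labelled as without drug. A ratio of 0 therefore means the level of that mix, and a negative ratio in wild type means less RNA than in the mixed Apoe-/- arch. The files hold ratios and no intensities, so the level of a gene, or whether it lay above background, cannot be stated, and nor can levels of different genes or of tissue markers be compared. Arrays at 24 weeks correlated negatively across probes with those at 8 weeks (median r = -0.54), 16 weeks (median r = -0.33) and wild type (median r = -0.43). The labels state the dyes and the reference holds all 3 times, so the direction of pool over reference was kept. The log2 scale and every fold rest on taking the deposited ratios as log10, which the sources used here do not state. Apoe, the deleted gene, lay at -0.15 ± 0.05 at 8 weeks, -0.07 ± 0.09 at 16 weeks and 0.09 ± 0.12 at 24 weeks, against 2.49 ± 0.44 in wild type (SD, n = 3 pools each). Of 18 macrophage markers, 7 rose against wild type at 8 weeks, 13 at 16 weeks and 15 at 24 weeks. Their median log2 ratio ranged over the pools from -1.83 to -1.39 at 8 weeks, from -0.85 to -0.27 at 16 weeks and from 0.49 to 0.63 at 24 weeks, against -2.66 to -2.17 in wild type. Of 12 smooth muscle markers, 0, 7 and 10 fell at 8, 16 and 24 weeks. Of the markers tested for other cell types at 24 weeks, 3 of 11 endothelial, 2 of 10 adipocyte, 3 of 7 T cell and 3 of 6 neutrophil markers rose. No endothelial, adipocyte, T cell or neutrophil marker fell. Of the rest, 4 of 10 fibroblast markers rose and 2 fell, 1 of 5 B cell markers fell, and none of 8 cardiac muscle markers passed. At 8 weeks, 4 endothelial, 3 adipocyte and 1 T cell marker rose, and no marker of the other types in these lists passed. At 16 weeks, 5 endothelial, 3 adipocyte, 3 T cell, 2 neutrophil and 2 fibroblast markers rose, and 1 fibroblast marker fell. Over all genes, 1.76%, 6.03% and 11.6% rose at 8, 16 and 24 weeks, and 0.736%, 4.07% and 11.3% fell. The part of these cell types in the changes below was not tested, and in pooled tissue more cells of a type cannot be told apart from more RNA per cell.

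The lysosomal genes were mostly higher in the Apoe-/- arch by 24 weeks, partly so at 16 weeks, and not detectably changed as single genes at 8 weeks. At 24 weeks, 24 of the 36 genes rose against wild type, 1 fell and 11 did not pass, where 22.9% of all genes passed, 11.6% higher and 11.3% lower. At 16 weeks, 10 rose, 1 fell and 25 did not pass, where 10.1% of all genes passed, 6.03% higher and 4.07% lower. At 8 weeks, none of the 36 passed in limma, where 2.5% of all genes did, 1.76% higher and 0.736% lower, while 12 had an unadjusted p under 0.05, of which 5 lay above and 7 below wild type. The median log2 difference of the 36 genes from wild type was 0.06 at 8 weeks, 0.25 at 16 weeks and 0.51 at 24 weeks, against -0.01, -0.03 and -0.04 for all genes. The 3 comparisons share the wild type arrays. Pool 2 had the widest spread of ratios of the 12 arrays, with an interquartile range of 0.47 on the log2 scale, and the lowest array weight, 0.15. Without pool 2, none of the 36 genes passed at 8 weeks, where 3.12% of all genes did. At 24 weeks, 26 then rose and 1 fell, where 31.7% of all genes passed. A gene passed where the adjusted p was below 0.05 in limma, a linear model that shares the spread over genes, with Benjamini-Hochberg adjustment over all 19705 genes. The count at 16 weeks depended on scaling: after quantile normalization, which gives all arrays the same spread of ratios, only Npc2 still rose, Asah1 and Smpd1 fell, and the median was 0.04. At 24 weeks, 26 genes rose after the same step. The 24-week pools lay wholly above the wild type pools in 28 genes and wholly below them in 1, where 49.2% of all genes showed no overlap, 20% above and 29.2% below. At 16 weeks this held for 19 genes above and 3 below (31.4% of all genes, 13.5% above and 17.9% below). At 8 weeks it held for 4 genes above, namely Npc2, Naglu, Hexa and Glb1, and 8 below, with differences from -0.11 for Idua to -0.57 for Asah1 (19.8% of all genes, 9.26% above and 10.5% below).

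**Figure D1:**
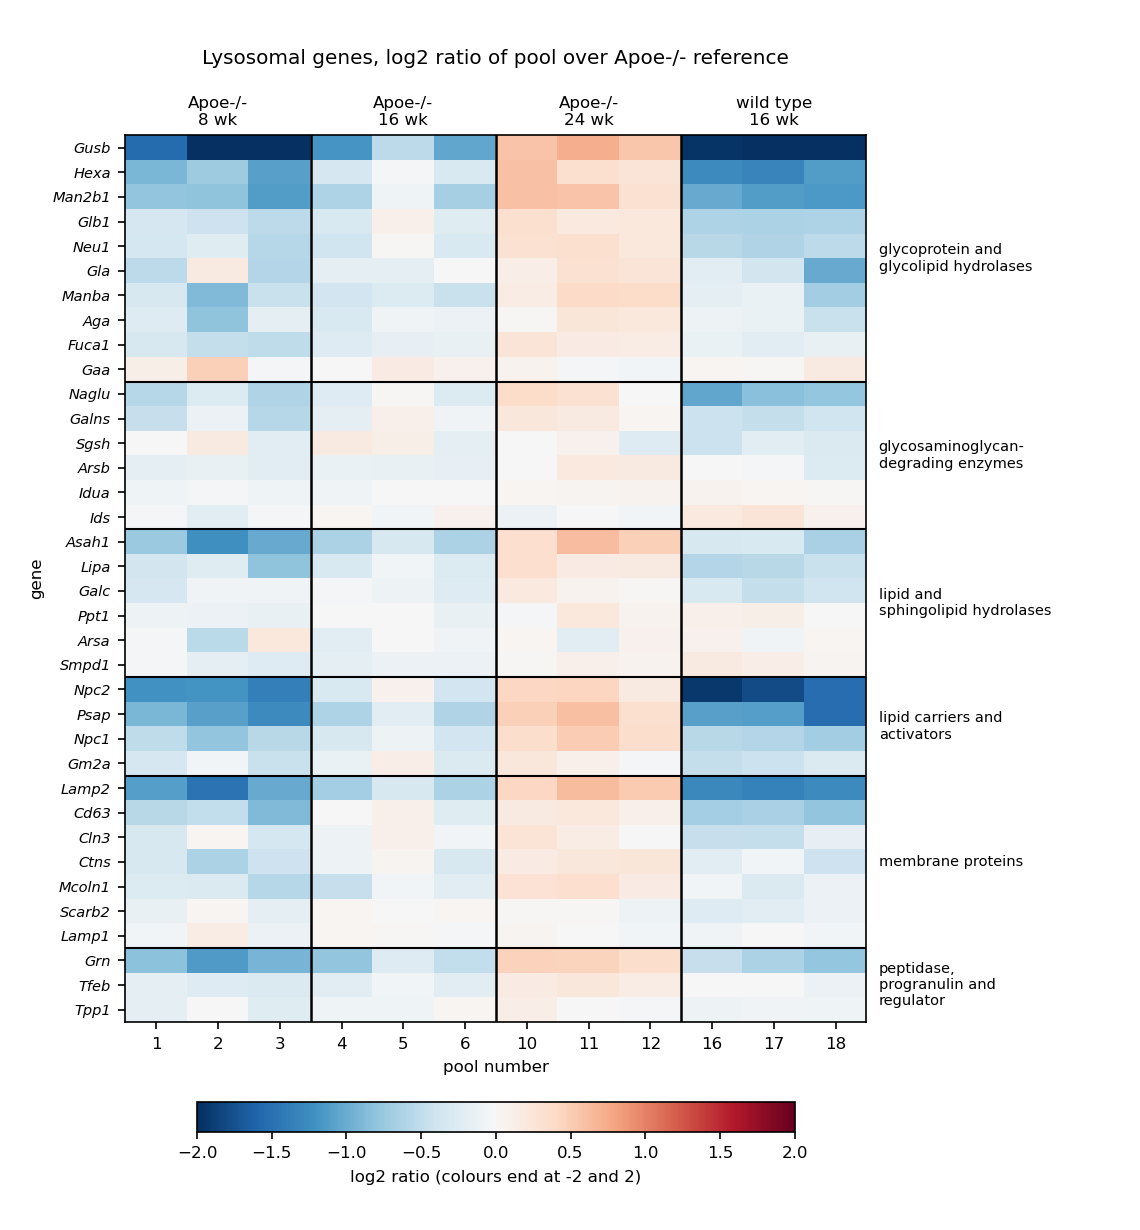
Log2 ratio of each pool over the Apoe-/- reference (colour, blue below and red above 0) for 36 lysosomal genes (vertical axis, grouped by role) in 12 pools (horizontal axis). The pools at 24 weeks lie above 0 for most genes, and most values of the 8-week and wild type pools lie below it. At 16 weeks the pools lie between, with pool 5 the highest of the 3 in 26 genes. After quantile normalization, Gusb, Man2b1, Psap and Lamp2 at 16 weeks lie below wild type.

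Among the 10 hydrolases grouped under sugar chains of glycoproteins and glycolipids, 8 rose at 24 weeks and 4 at 16 weeks. Their median log2 differences from wild type were 0.80 and 0.37, and the group was counted with Gusb and Gaa in it. Gusb, the beta-glucuronidase that takes glucuronic acid off glycosaminoglycans, moved furthest of the 36 genes. Its log2 ratios were -1.54, -2.33 and -2.14 at 8 weeks, -1.17, -0.52 and -1.04 at 16 weeks and 0.57, 0.73 and 0.56 at 24 weeks, against -1.97, -2.15 and -2.42 in wild type. The 16-week and 24-week pools all lay above every wild type pool, while the 8-week pools overlapped with wild type. Gusb was 2.41-fold higher than in wild type at 16 weeks (log2 difference 1.27 ± 0.21, SE, n = 3 pools each, adjusted p = 0.00298 in limma) and 6.95-fold higher at 24 weeks (95% confidence interval 5.02 to 9.62, adjusted p = 4.08e-06). After quantile normalization its 16-week difference turned to -0.51 (adjusted p = 0.149), while that at 24 weeks was 1.99.

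Hexa, an enzyme subunit that takes part in the breakdown of gangliosides, had log2 ratios of -0.91, -0.71 and -1.09 at 8 weeks, -0.34, -0.02 and -0.31 at 16 weeks and 0.58, 0.32 and 0.26 at 24 weeks, against -1.27, -1.31 and -1.11 in wild type. All 9 Apoe-/- pools lay above all 3 wild type pools. The log2 difference of Hexa was 0.33 ± 0.13 at 8 weeks, which did not pass (adjusted p = 0.171 in limma), 1.01 ± 0.13 at 16 weeks (adjusted p = 0.000413) and 1.62 ± 0.13 at 24 weeks (adjusted p = 4.34e-06). Man2b1, the lysosomal alpha-mannosidase, had log2 ratios of -0.79, -0.80 and -1.12 at 8 weeks, -0.62, -0.09 and -0.67 at 16 weeks and 0.59, 0.56 and 0.30 at 24 weeks, against -1.01, -1.12 and -1.14 in wild type. Pool 5 stood well above the other 16-week pools of Man2b1, and the 16-week and 24-week pools cleared wild type. Man2b1 rose by 0.63 ± 0.15 at 16 weeks (adjusted p = 0.0223 in limma, not passing without any single one of pools 5, 16, 17 or 18, and -0.09 after quantile normalization) and by 1.58 ± 0.15 at 24 weeks (adjusted p = 2.41e-05).

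The other sugar-chain enzymes moved less. Glb1, the lysosomal beta-galactosidase, rose 1.39-fold at 16 weeks and 1.82-fold at 24 weeks, and its wild type pools lay close together, between -0.64 and -0.61. Neu1, a sialidase, rose 1.79-fold at 24 weeks, and its 16-week log2 difference of 0.34 did not pass (adjusted p = 0.0872 in limma). Gla, the alpha-galactosidase whose loss stores globosides, rose 1.70-fold at 24 weeks with a wide confidence interval of 1.21 to 2.37, and wild type pool 18 lay at -1.01, apart from the other wild type pools at -0.22 and -0.36. The call for Gla was lost without any single one of pools 10, 11, 12 or 18. Manba, the beta-mannosidase, rose 1.55-fold (lost without pool 11, 12 or 18) and Fuca1, an alpha-fucosidase, 1.28-fold at 24 weeks. Aga, which cuts the bond between sugar chain and asparagine, had a log2 difference of 0.38 that did not pass, and Gaa, which degrades glycogen, one of -0.09.

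The 6 other enzymes that degrade glycosaminoglycans, counted without Gusb, were mixed. Of these, 2 rose and 1 fell at 24 weeks, and 1 rose at 16 weeks, with median log2 differences of 0.24 and 0.15. Naglu, which takes N-acetylglucosamine off heparan sulfate, had log2 ratios of -0.57, -0.28 and -0.61 at 8 weeks, -0.26, 0.03 and -0.28 at 16 weeks and 0.37, 0.30 and 0.00 at 24 weeks, against -1.03, -0.83 and -0.77 in wild type. As for Hexa, all 9 Apoe-/- pools lay above the 3 wild type pools. Naglu was 1.63-fold higher at 16 weeks (confidence interval 1.34 to 1.99, adjusted p = 0.00512 in limma) and 2.15-fold higher at 24 weeks (1.76 to 2.62, adjusted p = 0.000103), and it holds an E-box at -73. Galns, a sulfatase of keratan sulfate, rose by a log2 difference of 0.58 at 24 weeks, with one of 0.38 at 16 weeks that did not pass.

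Ids, the iduronate sulfatase, was the only one of the 36 genes that fell at 24 weeks. It had log2 ratios of -0.02, -0.21 and -0.04 at 8 weeks, 0.03, -0.06 and 0.09 at 16 weeks and -0.12, 0.00 and -0.05 at 24 weeks, against 0.20, 0.26 and 0.08 in wild type. The 24-week pools lay below wild type, by a log2 difference of -0.23 ± 0.08 (adjusted p = 0.0495 in limma). The fall of Ids rested on little: leaving out any single one of 10 pools (all but 2 and 18) ended the call, none of its 3 probes passed when fitted singly, and these gave -0.23, -0.51 and 0.04. Arsb, a sulfatase of dermatan sulfate, had log2 ratios of -0.18, -0.15 and -0.23 at 8 weeks, -0.13, -0.16 and -0.17 at 16 weeks and 0.01, 0.20 and 0.18 at 24 weeks, against 0.00, -0.04 and -0.28 in wild type. Its groups overlapped at 16 weeks with wild type, and the 24-week difference of 0.24 did not pass. Of its 3 probes, the 1 filed under the older name 1110007C02Rik gave 0.59 at 24 weeks (adjusted p = 0.0327 in limma over all probes), and the others gave 0.08 and 0.03. Sgsh and Idua, which act on heparan and dermatan sulfate, had differences of 0.25 and 0.01 at 24 weeks that did not pass.

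The lipid and sphingolipid hydrolases, counted with Ppt1, which acts on proteins, did not move together. Of these 6, 3 rose at 24 weeks, none rose at 16 weeks and 1 fell there, with median log2 differences of 0.25 and -0.11. Lipa, the acid lipase that frees cholesterol from its esters, had log2 ratios of -0.37, -0.25 and -0.80 at 8 weeks, -0.30, -0.05 and -0.28 at 16 weeks and 0.33, 0.16 and 0.18 at 24 weeks, against -0.59, -0.55 and -0.45 in wild type. Its 16-week and 24-week pools cleared wild type, and the 8-week pools overlapped with it. Lipa was 1.69-fold higher at 24 weeks (confidence interval 1.39 to 2.06, adjusted p = 0.00143 in limma), while its 16-week log2 difference of 0.32 did not pass (adjusted p = 0.165).

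Asah1, the acid ceramidase, shown by pool after its values were seen, crossed wild type over the diet. Its log2 ratios were -0.75, -1.22 and -1.01 at 8 weeks, -0.64, -0.32 and -0.63 at 16 weeks and 0.33, 0.61 and 0.48 at 24 weeks, against -0.32, -0.31 and -0.64 in wild type. The 8-week pools all lay below wild type, those at 16 weeks overlapped with it and those at 24 weeks lay above. The difference of Asah1 from wild type was -0.57 ± 0.14 at 8 weeks (adjusted p = 0.0653 in limma, passing without pool 1 or without pool 18), -0.11 at 16 weeks (-0.59 after quantile normalization, which then passed) and 0.90 ± 0.14 at 24 weeks (adjusted p = 0.00089).

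Smpd1, the acid sphingomyelinase, fell at 16 weeks by 0.26 ± 0.07 on the log2 scale (adjusted p = 0.0443 in limma). Its ratios were -0.02, -0.18 and -0.25 at 8 weeks, -0.20, -0.11 and -0.11 at 16 weeks and 0.02, 0.09 and 0.08 at 24 weeks, against 0.18, 0.13 and 0.05 in wild type. The 8-week and 16-week pools lay below wild type and the 24-week pools overlapped with it. The call for Smpd1 at 16 weeks was lost without any single one of 8 pools (4, 5, 6, 10, 11, 12, 16 or 17). The related 24-week difference was -0.06 and did not pass.

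The probes of Galc, the galactosylceramidase, disagreed. Their mean had log2 ratios of -0.34, -0.07 and -0.08 at 8 weeks, -0.03, -0.11 and -0.25 at 16 weeks and 0.19, 0.08 and 0.03 at 24 weeks, against -0.30, -0.47 and -0.40 in wild type, and it rose 1.40-fold at 24 weeks. That rise came from a single probe, with a log2 difference of 1.17 (adjusted p = 0.000187 in limma), while the other gave -0.19 (adjusted p = 0.293). Arsa, which takes sulfate off sulfatide, had ratios of -0.04, -0.54 and 0.22 at 8 weeks, -0.21, 0.01 and -0.07 at 16 weeks and 0.04, -0.23 and 0.09 at 24 weeks, against 0.09, -0.07 and 0.03 in wild type. Its groups overlapped at every time and its 2 probes gave 0.15 and -0.25 at 24 weeks. Ppt1, which removes palmitate from proteins, had ratios of -0.11, -0.12 and -0.15 at 8 weeks, -0.01, -0.01 and -0.15 at 16 weeks and -0.03, 0.21 and 0.07 at 24 weeks, against 0.11, 0.11 and -0.01 in wild type. Ppt1 lay below wild type in all 8-week pools, but none of its differences from wild type passed, and its 2 probes gave 0.10 and -0.07 at 24 weeks.

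The lipid carriers and activators were the role in which all members rose at 24 weeks, 4 of 4, with 3 of 4 higher at 16 weeks and median log2 differences of 1.36 and 0.55. Npc2, the soluble cholesterol carrier of the lysosome, had log2 ratios of -1.21, -1.19 and -1.37 at 8 weeks, -0.31, 0.08 and -0.38 at 16 weeks and 0.42, 0.44 and 0.18 at 24 weeks, against -1.93, -1.79 and -1.53 in wild type. All 9 Apoe-/- pools lay above all wild type pools, and no 8-week pool overlapped with a 16-week pool. Npc2 was 2.92-fold higher at 16 weeks (confidence interval 2.36 to 3.60, adjusted p = 4.47e-05 in limma) and 4.27-fold higher at 24 weeks (3.45 to 5.27, adjusted p = 1.61e-06). At 8 weeks the difference was 0.49 ± 0.14 with an adjusted p of 0.0914, which passed without pool 18. Among the 11 genes called at 16 weeks, the call for Npc2 was the only one kept under every alternative that was run.

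Npc1, the membrane protein that takes cholesterol over from Npc2, had log2 ratios of -0.50, -0.79 and -0.56 at 8 weeks, -0.32, -0.11 and -0.38 at 16 weeks and 0.35, 0.51 and 0.35 at 24 weeks, against -0.55, -0.59 and -0.70 in wild type. The 16-week and 24-week pools lay above wild type and the 8-week pools overlapped with it. Its difference was 0.00 ± 0.10 at 8 weeks, 0.34 ± 0.10 at 16 weeks (adjusted p = 0.0497 in limma) and 1.02 ± 0.10 at 24 weeks (adjusted p = 2.41e-05). At 16 weeks the call for Npc1 was lost without any single one of 10 pools (all but 1 and 2), and at 24 weeks it was kept under every alternative.

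Psap, the precursor of the saposins that present sphingolipids to their hydrolases, had log2 ratios of -0.91, -1.09 and -1.27 at 8 weeks, -0.63, -0.23 and -0.61 at 16 weeks and 0.47, 0.60 and 0.32 at 24 weeks, against -1.08, -1.10 and -1.52 in wild type. As with Npc1, the pools at 16 and 24 weeks cleared wild type and those at 8 weeks did not. Psap rose 1.68-fold at 16 weeks (adjusted p = 0.00828 in limma, with a log2 difference of -0.06 after quantile normalization) and 3.25-fold at 24 weeks (confidence interval 2.58 to 4.08, adjusted p = 1.18e-05). Gm2a, the ganglioside activator, rose 1.42-fold at 24 weeks, and the call was lost without pool 10 or without pool 16.

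**Figure D2:**
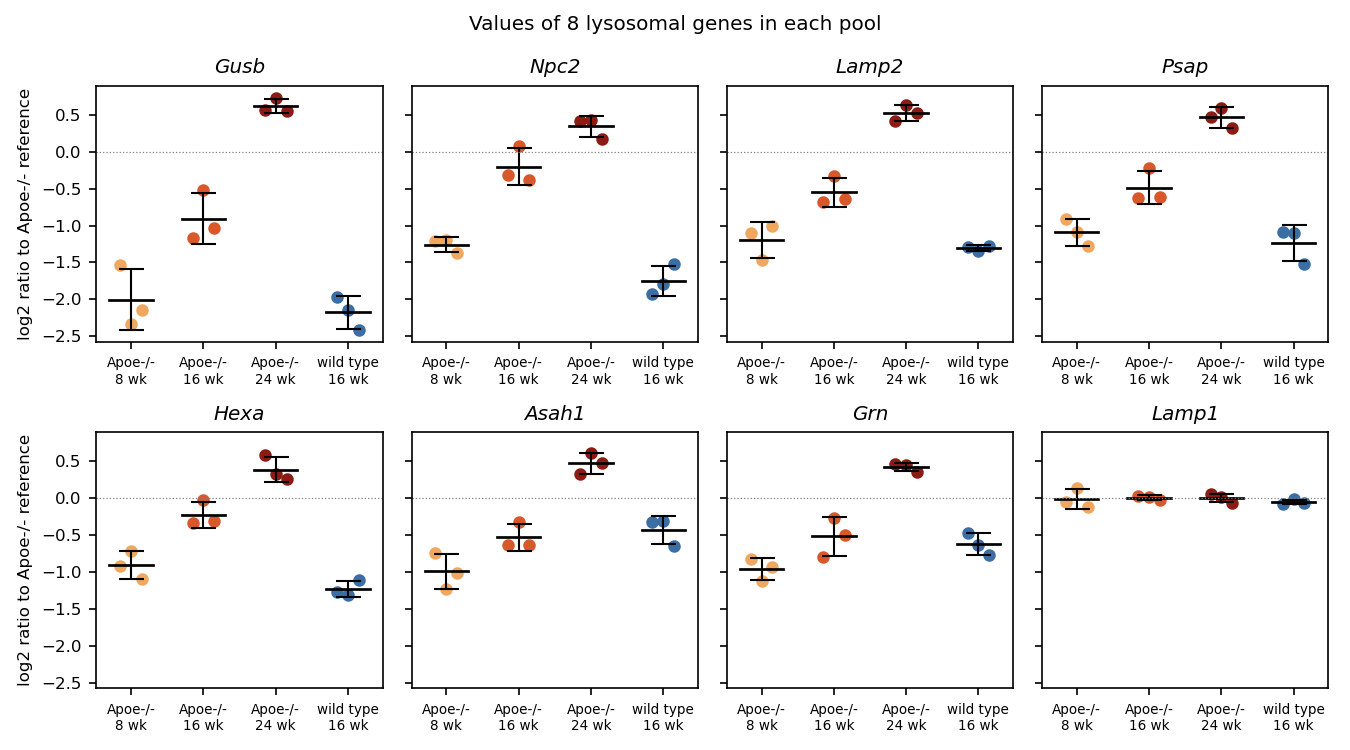
Log2 ratio to the Apoe-/- reference (vertical axis) of 8 genes in each pool (points), with the group mean (line) and SD (bars, n = 3 pools), for Apoe-/- at 8, 16 and 24 weeks and wild type at 16 weeks. Gusb, Npc2, Lamp2, Psap and Hexa climb over the diet times and start near or slightly above wild type, and after quantile normalization Gusb, Psap and Lamp2 lie below wild type at 16 weeks. Asah1 and Grn start below wild type and end above it, and Lamp1 stays within 0.15 of 0.

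Of the 7 membrane proteins, 5 rose at 24 weeks and 2 at 16 weeks, with median log2 differences of 0.44 and 0.23, and the abundant lysosomal membrane glycoproteins Lamp1 and Lamp2 behaved unlike each other. Lamp2 had log2 ratios of -1.10, -1.47 and -1.01 at 8 weeks, -0.69, -0.32 and -0.64 at 16 weeks and 0.42, 0.64 and 0.52 at 24 weeks, against -1.29, -1.35 and -1.28 in wild type. The wild type pools of Lamp2 were tightly grouped, and the 16-week and 24-week pools all lay above them. Lamp2 rose 1.69-fold at 16 weeks (adjusted p = 0.00314 in limma, with a log2 difference of -0.17 after quantile normalization) and 3.56-fold at 24 weeks (confidence interval 2.93 to 4.33, adjusted p = 2.37e-06). Lamp1, with 4 E-boxes before its start, had ratios of -0.06, 0.15 and -0.12 at 8 weeks, 0.03, 0.02 and -0.03 at 16 weeks and 0.06, 0.01 and -0.06 at 24 weeks, against -0.07, -0.02 and -0.06 in wild type. At 24 weeks its log2 difference was 0.05, with a 95% confidence interval of -0.11 to 0.22, and its 2 probes gave 0.19 and -0.09. The difference in response between Lamp1 and Lamp2 was not tested.

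Cd63, a tetraspanin of late endosomes and lysosomes, had log2 ratios of -0.56, -0.50 and -0.88 at 8 weeks, -0.01, 0.09 and -0.24 at 16 weeks and 0.19, 0.22 and 0.10 at 24 weeks, against -0.67, -0.65 and -0.79 in wild type. All 16-week and 24-week pools lay above wild type, with a rise of 1.58-fold at 16 weeks (adjusted p = 0.00318 in limma) and of 1.83-fold at 24 weeks (adjusted p = 0.000179). Cln3, a membrane protein lost in a childhood storage disease, rose 1.43-fold at 24 weeks, Ctns, the cystine exporter, 1.36-fold and Mcoln1, a calcium channel of the lysosome, 1.33-fold. Each of these 3 calls was lost without some single pool: pools 10, 16 or 17 for Cln3, pools 11, 12, 16 or 18 for Ctns and pools 10, 11, 17 or 18 for Mcoln1. Scarb2, a lysosomal membrane protein that also acts as a sorting receptor, had ratios of -0.15, 0.04 and -0.18 at 8 weeks, 0.05, 0.01 and 0.05 at 16 weeks and 0.03, 0.03 and -0.11 at 24 weeks, against -0.26, -0.22 and -0.11 in wild type. The mean of its 2 probes did not pass at 16 or 24 weeks, although 1 probe gave 0.42 at 24 weeks (adjusted p = 0.00848 in limma) and the other gave -0.06.

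Grn encodes progranulin, which is cut into granulins in the lysosome. Its log2 ratios were -0.82, -1.13 and -0.93 at 8 weeks, -0.79, -0.26 and -0.49 at 16 weeks and 0.46, 0.45 and 0.36 at 24 weeks, against -0.47, -0.63 and -0.77 in wild type. Like Asah1, Grn lay below wild type in all 8-week pools (log2 difference -0.34, adjusted p = 0.178 in limma), overlapped with it at 16 weeks and lay above it at 24 weeks, where it was 2.06-fold higher (confidence interval 1.69 to 2.52, adjusted p = 0.000161 in limma). Tfeb, the regulator itself, had ratios of -0.20, -0.25 and -0.30 at 8 weeks, -0.22, -0.06 and -0.23 at 16 weeks and 0.17, 0.23 and 0.15 at 24 weeks, against -0.01, -0.01 and -0.12 in wild type. Tfeb lay below wild type in all 8-week pools and above it in all 24-week pools, with a rise at 24 weeks of 1.17-fold (adjusted p = 0.035 in limma) that was lost without any single one of pools 10, 11, 12, 16, 17 or 18. From 8 to 24 weeks within Apoe-/- it rose by a log2 difference of 0.43, a call kept under every alternative. From 16 to 24 weeks it rose by 0.35, a call lost without pool 4, 6, 11 or 12. Tpp1, a tripeptidyl peptidase, had a 24-week log2 difference of 0.13 that did not pass.

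**Figure D3:**
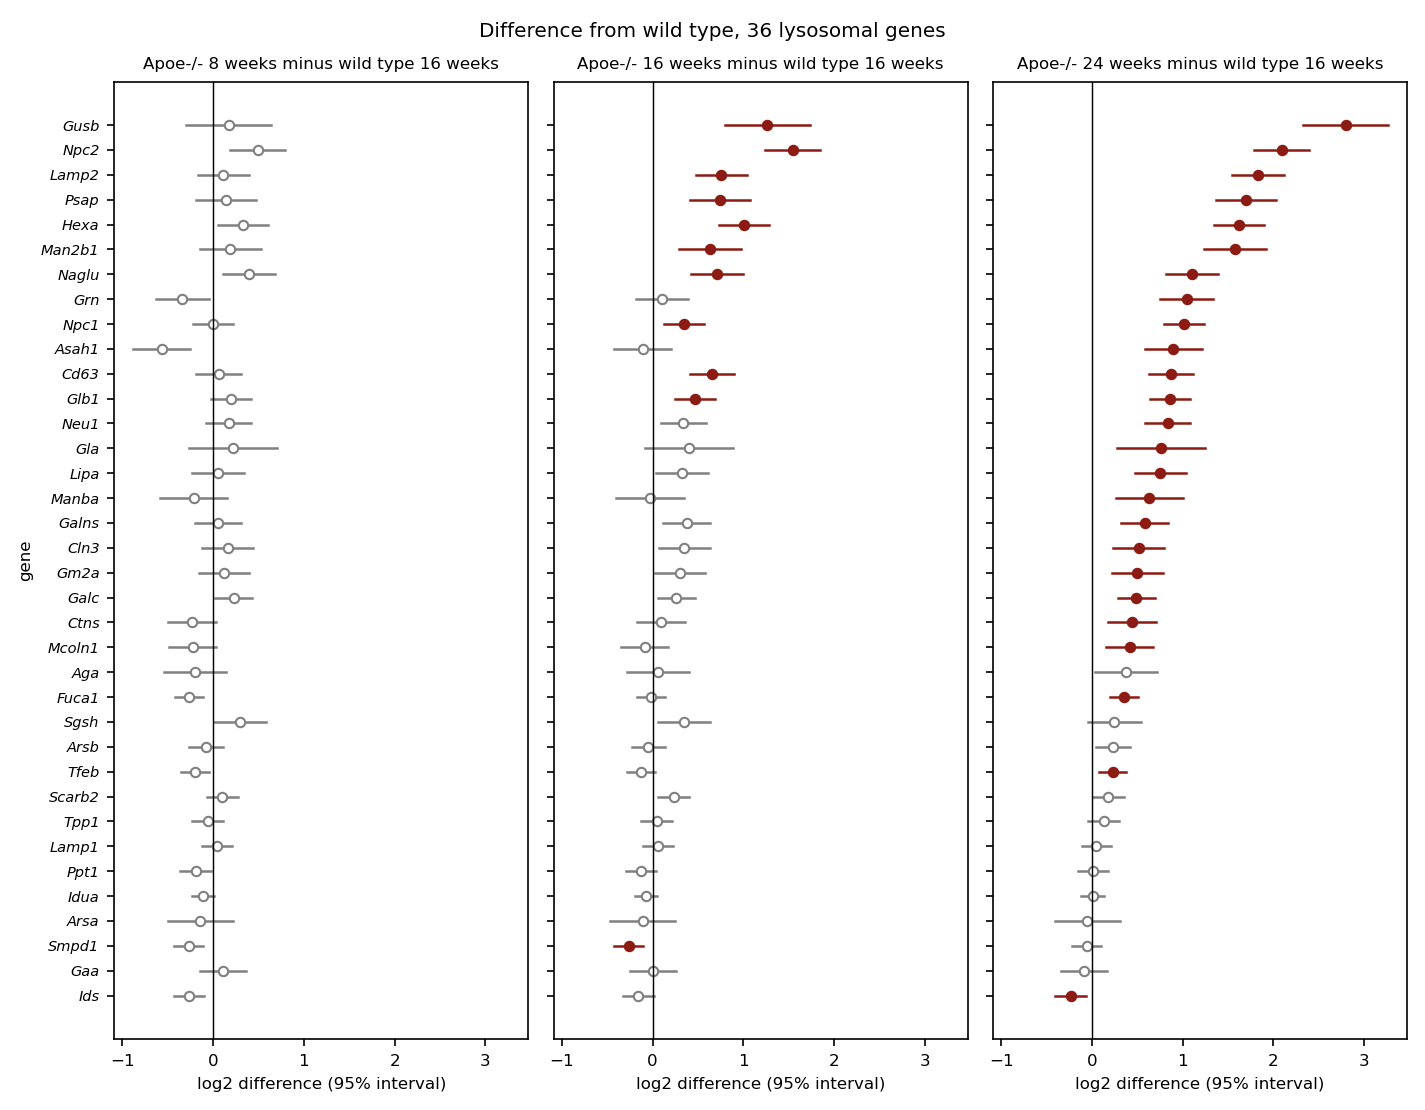
Log2 difference from wild type (horizontal axis, points with 95% confidence intervals from limma) of the 36 genes (vertical axis, ordered by the 24-week difference) for Apoe-/- at 8, 16 and 24 weeks. Filled points passed the threshold: 0 genes at 8 weeks, 11 at 16 weeks and 25 at 24 weeks. Quantile normalization turns the signs of Gusb, Man2b1, Psap and Lamp2 at 16 weeks.

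Within the Apoe-/- groups, group means ran in the order 8, 16, 24 weeks in 31 of the 36 genes, as they did in 29.3% of all genes, and in the opposite order in 1 gene, as in 35.2% of all genes. The 24-week mean was the highest of the 4 groups in 29 genes. Wild type was the lowest group in 19 genes and the 8-week group in 16. The shares of all genes with these highest and lowest groups were not computed, so these counts have no background beside them. Between 8 and 24 weeks, 24 genes rose and none fell, where 28.8% of all genes passed, 14.7% higher and 14.1% lower in limma, and in 27 genes the 24-week pools all lay above the 8-week pools (44.8% of all genes did not overlap, 20.9% above and 23.9% below). Of these 24 genes, 13 had means above wild type at both times, 10 lay below wild type at 8 weeks and above it at 24 weeks, and Smpd1 lay below it at both. The 10 were Asah1, Grn, Manba, Ctns, Mcoln1, Aga, Fuca1, Arsb, Tfeb and Npc1, whose 8-week differences from wild type ran from -0.57 for Asah1 to 0.00 for Npc1 and did not pass.

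The later interval held more called changes than the earlier one, although the difference between the intervals was not tested and both share the 16-week arrays. Between 8 and 16 weeks 5 genes rose, where 2.4% of all genes passed, 1.89% higher and 0.507% lower, namely Gusb 2.13-fold, Npc2 2.08-fold, Hexa 1.60-fold, Lamp2 1.56-fold and Cd63 1.51-fold. The pools of the later time lay wholly above those of the earlier time in 13 genes between 8 and 16 weeks (16.4% of all genes did not overlap, 8.73% above and 7.63% below) and in 24 genes between 16 and 24 weeks (39.5% of all genes, 18.5% above and 21% below). The count of 5 fell to 3 without pool 3, to 1 without pool 5 and to 0 after quantile normalization, where Gusb and Lamp2 had log2 differences of -0.09 and -0.01. Between 16 and 24 weeks 15 genes rose, where 5.95% of all genes passed, 3.98% higher and 1.96% lower, led by Gusb 2.89-fold, Lamp2 2.11-fold and Asah1 2.01-fold. Psap, Man2b1 and Grn were 1.93-fold, 1.93-fold and 1.92-fold higher, and Npc1, at 1.59-fold, was the highest of the remaining 9. The count of 15 was 5 without pool 4, 7 without pool 6, 8 without pool 10, 5 without pool 11, 7 without pool 12 and 21 after quantile normalization. Of the 5 genes called between 8 and 16 weeks, Cd63, Npc2 and Hexa had smaller log2 differences in this interval, of 0.22, which did not pass, 0.55 (adjusted p = 0.0428 in limma) and 0.61 (adjusted p = 0.0203), and whether the intervals differ was not tested.

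Pool 5 carried the highest value of the 16-week pools in 26 of the 36 genes, where it did so in 38.8% of all genes. The median log2 ratio of the 36 genes was -0.21, -0.05 and -0.23 in pools 4, 5 and 6, and the median of the 18 macrophage markers was -0.85, -0.27 and -0.70 in the same pools. Adgre1, which encodes the macrophage protein F4/80, lay at -0.95, -0.52 and -0.97 in these pools, and Csf1r, the receptor for macrophage colony stimulating factor, at -0.12, 0.16 and -0.15. Not every macrophage marker was highest in pool 5. Itgam, at 0.38, 0.02 and 0.84 in pools 4, 5 and 6, was lowest there, and Itgam, Cd163, Mrc1 and Mertk were highest in pool 6. The median of the 12 smooth muscle markers was 0.09, -0.04 and 0.10 in pools 4, 5 and 6. Myh11 and Acta2, at -0.08 and 0.07 in pool 5, were lowest there, while Tagln and Actg2, at 0.10 and -0.04, were highest there. At 8 weeks, pool 3 had the lowest value of the 3 pools in 25 of the 36 genes (32.3% of all genes) and the lowest macrophage median, -1.83, although the macrophage mean was lowest in pool 2, at -1.52 against -1.47 in pool 3, as was Adgre1. At 24 weeks, pool 12 had the lowest value in 22 genes (33.6% of all genes) and the lowest macrophage median, 0.49. Cardiac muscle markers varied more between pools of a group, with medians of -0.44, -1.67 and 1.19 in pools 4, 5 and 6 and of 0.09, -1.55 and 0.43 in pools 10, 11 and 12. Without pool 5, the 16-week calls for Man2b1, Npc1 and Smpd1 were lost and the other 8 were kept.

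The other lysosomal genes were counted in the same way. Of 43 tested, 2 rose and 1 fell at 8 weeks, 11 rose at 16 weeks, and 21 rose and 5 fell at 24 weeks, with median log2 differences of -0.01, 0.06 and 0.26. Acp5, the tartrate-resistant acid phosphatase of osteoclasts and macrophages, had ratios of -1.35, -1.55 and -1.57 at 8 weeks, -0.65, 0.10 and -0.44 at 16 weeks and 0.58, 0.56 and 0.31 at 24 weeks, against -3.22, -3.55 and -2.80 in wild type. All its Apoe-/- pools lay above wild type, and it rose by 1.70 at 8 weeks, 2.86 at 16 weeks and 3.68 at 24 weeks on the log2 scale. Plbd1, a phospholipase B-like protein, rose by 1.79 and 1.77, Laptm5, a membrane protein of leukocyte lysosomes, by 1.72 and 2.09, Lgmn, an asparagine-specific protease, by 1.60 and 2.83, and Fuca2, a secreted fucosidase, by 1.03 and 1.86 at 16 and 24 weeks. Cd68, a lysosomal glycoprotein of macrophages, had a log2 difference of 0.06 at 16 weeks that did not pass and rose by 0.29 at 24 weeks. Of the relatives of Tfeb, Mitf rose by 0.26 at 24 weeks (adjusted p = 0.00947 in limma), and Tfe3 had a difference of 0.32 that did not pass (adjusted p = 0.0598).

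The cathepsins, which are lysosomal proteases, had 9 of 13 higher at 16 weeks, and 9 higher and 1 lower at 24 weeks, with median log2 differences of 0.79 and 1.56. Of 23 proton pump subunits, which acidify the lysosome, 3 rose at 16 weeks, and 11 rose and 2 fell at 24 weeks, with medians of 0.01 and 0.10. At 8 weeks, 2 of 13 cathepsins, 2 of 23 pump subunits and none of the 36 genes had risen, where 1.76% of all genes rose. The lists and the 36 genes were measured on the same arrays, and the differences between lists were not tested.

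**Figure D4:**
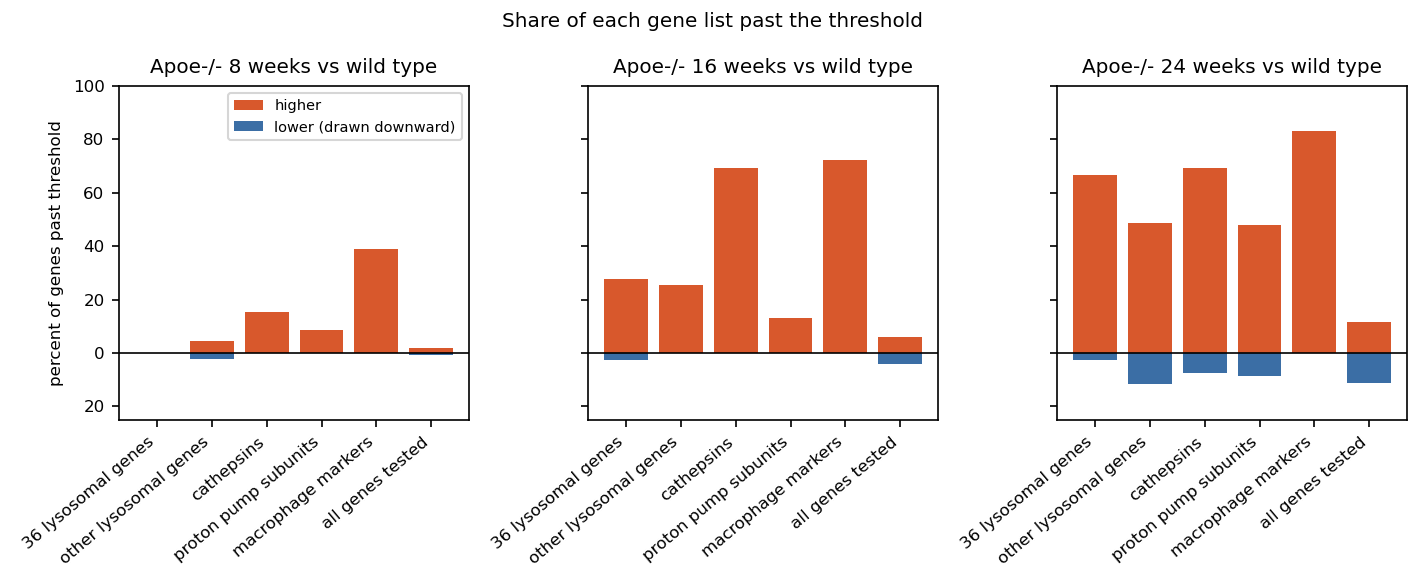
Percent of each gene list that passed the threshold in limma (vertical axis, higher upward and lower downward) for the 36 lysosomal genes, 4 other lists and all genes tested (horizontal axis), at 8, 16 and 24 weeks against wild type. The 36 genes go through 0%, 27.8% and 66.7% higher, and all genes through 1.76%, 6.03% and 11.6%. After quantile normalization, 1 of the 36 genes rose at 16 weeks and 26 at 24 weeks.

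The genes with an E-box at their start did not stand out by the size of their change from wild type at 24 weeks. At 24 weeks, 5 of the 9 genes with an E-box rose, with a median log2 difference of 0.41 and a range of -0.09 to 1.10, against 16 of 23 genes without it, with a median of 0.50 and a range of -0.23 to 2.80. Naglu, at 1.10, was the highest with an E-box, and 6 genes without it (Gusb, Npc2, Lamp2, Psap, Hexa and Man2b1) lay above that. Lamp1, with the most E-boxes, differed by 0.05 and Gaa and Arsa by -0.09 and -0.05. At 16 weeks the medians were 0.35 with the E-box and 0.23 without it. Within Apoe-/-, 3 of 9 genes with the E-box and 17 of 23 without it rose between 8 and 24 weeks (14.7% of all genes). Their medians were 0.358 and 0.665. Between 16 and 24 weeks, 2 of 9 and 11 of 23 rose (3.98% of all genes), with medians of 0.166 and 0.352. These are matches of letters in a short window, the groups were not tested against each other, and a window without the letters says nothing of sites elsewhere.

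**Figure D5:**
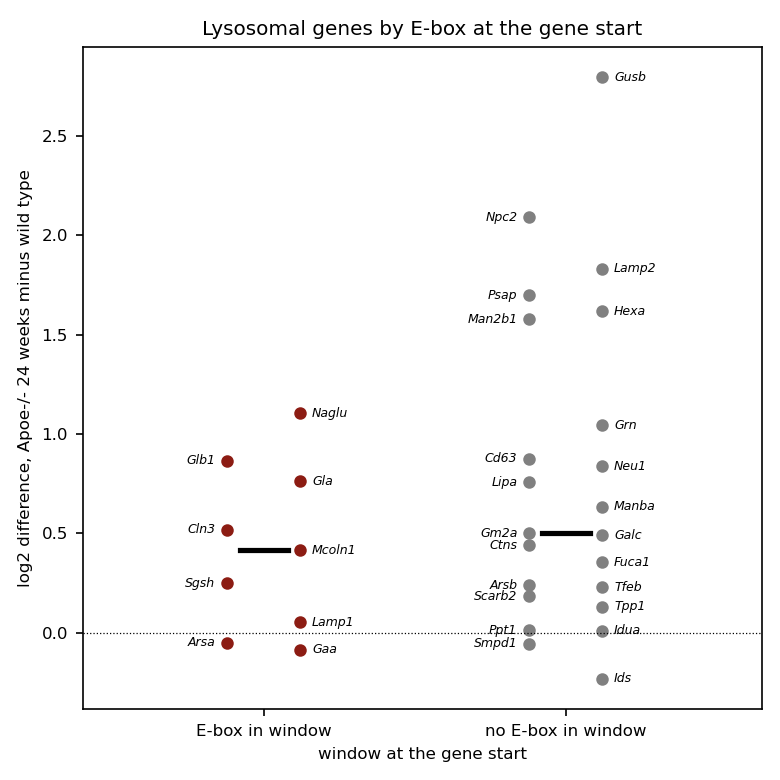
Log2 difference from wild type at 24 weeks (vertical axis) of 32 lysosomal genes (points, labelled), split by whether an E-box lies in the window at the gene start (horizontal axis), with the median of each group as a short line. The 9 genes with an E-box lie between -0.09 and 1.10, and the 23 without it between -0.23 and 2.80.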

How the data were processed

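RNA of 12 pools of mouse aortic arches was measured on 2-colour arrays, with the pool in Cy5 and a common Apoe-/- reference in Cy3 and no dye swap, per the labels. The values are log ratios that the authors deposited in their processed table, with scale, centring and direction unstated in the sources used here. Pool over reference was inferred from the dyes in the labels and from Apoe, which was higher in wild type, and column medians lay between -0.0025 and 0.0181. These do not show the base of the logarithm, so log10 was assumed. Taken as log10, the deposited ratios were multiplied by 3.3219 to give log2 ratios, with no further normalization. Background correction and a filter on dim probes were not possible without intensities. The number of arrays limits the precision, and dim probes could not be set apart.

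Of 39556 probes, 23283 carried 1 gene symbol, none carried several and 16273 were unnamed here. Symbols were updated with RefSeq names (GRCm38.p6): 14510 were current, 5952 were replaced, 78 were ambiguous and 11 were not found, and the last 2 kinds were kept. Probes of a gene were averaged, and the 19705 genes measured on all arrays were tested with limma 3.58.1 (R 4.3.3). The model held 1 mean per group, the empirical Bayes spread (8 residual and 2.95 prior degrees of freedom) and two-sided tests, with Benjamini-Hochberg adjusted p below 0.05. The same script was tested on simulated data. No arrays were identical. Each pool counts as 1 replicate, so p-values rest on the spread between pools, shared over groups and genes, and not on that between single mice.

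The 36 genes, the gene and marker lists and the tests were chosen with earlier results of these data known. Values by pool are given for genes of the set that passed at 16 weeks against wild type with a log2 difference of at least 0.5, for those that fell and passed, for Npc1, Lipa, Tfeb and Grn, and for those whose probes differ in sign. Of the other lysosomal genes, the 5 with the largest called differences at 16 weeks are named, and Cd68, Tfe3, Mitf and the markers Adgre1, Csf1r, Myh11 and Acta2 in any case. Alternatives covered quantile normalization, median centring, array weights, the compared groups alone, a robust prior, probes fitted singly, a threshold of 0.01 and leaving out each pool, pools 3 and 6, or pools 2 and 18. The last of these was chosen after seeing the data. Promoter windows came from RefSeq.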

Additional observations from a re-analysis of the deposited data

Results flagged for a closer look

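The difference between 8 and 24 weeks is a difference within the Apoe-/- pools. It passed its own test in limma for 24 of the 36 genes (28.8% of all genes passed). Both diet times were compared with the same wild type pools, whose mean cancels from this difference. Whether the effect of genotype changes with diet time therefore cannot be tested here, as wild type was not measured at 8 or 24 weeks. The log2 differences at 24 minus 8 weeks were 2.62 for Gusb, 1.72 for Lamp2, 1.60 for Npc2, 1.56 for Psap, 1.47 for Asah1, 1.39 for Man2b1, 1.38 for Grn, 1.29 for Hexa and 1.02 for Npc1. They were 0.85 for Manba, 0.81 for Cd63, 0.71 for Naglu, 0.70 for Lipa, 0.68 for Ctns, 0.67 for Glb1, 0.67 for Neu1, 0.64 for Mcoln1 and 0.62 for Fuca1. The smallest were 0.58 for Aga, 0.53 for Galns, 0.43 for Tfeb, 0.38 for Gm2a, 0.32 for Arsb and 0.21 for Smpd1. The calls for Smpd1, Gm2a, Arsb and Aga were lost without some single pool (11, 8, 2 and 2 pools). Diet time and age differ together between these groups, and their parts cannot be told apart.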

How the results depend on the processing

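Of 80 called differences of the 36 genes over 6 comparisons, 42 kept their call and direction under every alternative. Of 1680 alternative values of called differences, 1443 kept both, 230 no longer passed and 7 changed sign, and 35 uncalled differences passed under some alternative. Quantile normalization turned the sign at 16 weeks against wild type for Gusb (-0.51), Man2b1 (-0.085), Psap (-0.057) and Lamp2 (-0.17), and at 16 against 8 weeks for Gusb (-0.092) and Lamp2 (-0.014). Fitting probes singly gave -0.009 for Arsb at 24 against 8 weeks. The cause was not tested.

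Quantile normalization gave 3 calls (main 11) and a median of 0.042 at 16 weeks against wild type, 0 calls (main 5) and 0.056 at 16 against 8 weeks, and medians of -0.033 at 8 weeks and 0.44 at 24 against 16 weeks. Median centring gave a median of 0.56 at 24 weeks. Array weights gave 21 calls at 16 weeks, 3 at 16 against 8 weeks and 23 at 24 against 16 weeks. The threshold of 0.01 gave 7, 1 and 7 calls in the same comparisons. With the 2 groups alone, 16 against 8 weeks had 0 calls. Without pools 3 and 6, there were 2 calls at 16 against 8 weeks and 6 at 24 against 16 weeks. Without pools 2 and 18, there was 1 call at 8 weeks and a median of -0.03. Leaving out single pools gave 0 to 3 calls at 8 weeks, 1 to 7 at 16 against 8 weeks and 5 to 16 at 24 against 16 weeks, and medians of 0.46 to 0.57 at 24 weeks. Of all called genes, the share higher at 16 weeks was 59.7%, against 44.8% after quantile normalization, 68.0% after centring and 41.1% with array weights. At 24 weeks it was 50.7%, against 50.7%, 60.7% and 41.0% under the same settings. No paired analysis was possible because no pool number is shared between groups. With 3 pools a group and no intensities, small differences and dim probes cannot be resolved.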

Other observations

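Lysosomal genes outside the 36 also included some that fell, named here after their values were seen. At 24 weeks against wild type, 5 of the 43 other lysosomal genes had lower ratios: Abcb9, a peptide transporter of the lysosome, by a log2 difference of -1.02, Sort1, which sorts cargo from the Golgi to the lysosome, by -0.81, Hgsnat, an acetyltransferase of heparan sulfate breakdown, by -0.42, Dnase2a, the acid nuclease, by -0.35, and Laptm4a, a transmembrane protein, by -0.31. In the set of 36, Ids alone fell, by -0.23. The share of genes that fell was 11.6% in the other lysosomal genes, 2.78% in the 36 genes and 11.3% over all genes, and the difference between the lists was not tested.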
